A study of Mus musculus with 4 samples.

Results

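The genes examined here encode the subunits of RNA polymerases I, II and III and of Mediator, and were chosen as the mouse protein-coding genes whose symbol begins with Polr1, Polr2 or Polr3 and a letter, or with Med and a digit. There were 58 such genes among 53465 genes in the count table, 28 of polymerases and 30 of Mediator. The series sequenced polyadenylated RNA of cells exposed to 1-nitropyrene at 5 µM over 12 h (2 libraries, replicates 2 and 3) and of control cells cultured without the compound (2 libraries, replicates 1 and 2). 1-nitropyrene is a nitrated polycyclic hydrocarbon of diesel exhaust. Every library carried the label MLE-12, a lung line of mouse made immortal with the SV40 large T antigen and used as a model of alveolar type 2 cells. The cells of both groups grew in medium with fetal bovine serum. Nothing in the labels ties the replicates to cultures of their own, so the spread between these libraries may be technical. The edgeR p-values rest on a spread common to all genes and not on the scatter of each gene's own replicates.

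RNA polymerase I transcribes the large ribosomal RNA precursor, RNA polymerase II transcribes protein-coding genes, and RNA polymerase III makes transfer RNAs, 5S ribosomal RNA and other small RNAs. Each enzyme has a pair of large catalytic subunits, a set of smaller subunits of its own, and subunits shared between the enzymes. Mediator is a large complex that carries signals from DNA-bound activators to RNA polymerase II. It has a head, a middle and a tail, joined by the backbone subunit Med14, and a detachable kinase module in which Med13 or its paralogue Med13l holds the kinase to the rest.

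Total counts were 8797502 and 8601825 in the 1-nitropyrene libraries and 10773733 and 6908055 in the control libraries. Ribosomal RNA loci, nuclear and mitochondrial together, held 44.5% and 44.3% of those counts with 1-nitropyrene, against 46.1% and 45.8% in control. Of 12 epithelial and surfactant markers, 9 had 0 counts in every library, among them Krt8, Krt18, Cdh1, Epcam, Nkx2-1 and Sftpb. Sftpc had 1 count and Lamp3 2 counts in all. The 12 markers summed to 8.11 to 9.55 CPM (depth-normalised counts, scaled by TMM factors) with 1-nitropyrene and to 8.03 to 10.3 CPM in control, nearly all of it Abca3. The counts thus do not bear out the label. Whether the reads come from the labelled line, and whether counting lost these genes, cannot be told from a count table, so the libraries are called by their labels here. Of 10 markers of other cells, Cd68 and Adgre1 were at 0, Ptprc and Pecam1 had 1 count each, and Cdh5 had 2. The sum of the 10, most of it Vim, was 391 and 405 CPM with 1-nitropyrene against 344 and 341 CPM in control. Vim was called higher (log2 fold change 0.23), and the other mesenchymal markers had fewer summed counts with 1-nitropyrene. Acta2 had 12 and 0 counts with 1-nitropyrene against 36 and 7 in control, or 1.38 and 0 CPM against 3.31 and 1 CPM. These groups overlapped, yet edgeR, with its common spread, called Acta2 lower (log2 fold change -1.77, SE 0.54, adjusted p = 0.0061). Pdgfra had 7 and 6 counts against 23 and 8 (-1.18, not called). Col1a2 had 0 and 1 counts against 17 and 7, and Col1a1 had 0 and 2 against 9 and 5, both too low for the test. Their part in the changes below was not tested. In bulk RNA, fewer cells of a type and less RNA per cell cannot be told apart.

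Counts were present for 50 of the 58 genes and fell into 2 separate ranges. The 43 genes that passed the filter on low counts had at least 35 counts over the 4 libraries. The other 15 had at most 2 counts in total, and 8 of them had 0. Among these 15 were Polr2d, Polr2i and the shared subunit genes Polr2f, Polr2k and Polr1c, the RNA polymerase I gene Polr1e and the RNA polymerase III gene Polr3g. The Mediator genes Med9, Med11, Med12l, Med16, Med18, Med20 and Med29 were there too. Some of them encode subunits that the enzymes are known to need. Polr3g, however, is an alternative to Polr3gl, and Med12l is a paralogue of Med12, and both Polr3gl and Med12 passed the filter. A count of 0 allowed up to 0.341 and 0.349 CPM in the 1-nitropyrene libraries and up to 0.278 and 0.434 CPM in the control libraries, at a floor of 3 counts, which covers counting error only. Among all protein-coding genes 55.2% had 0 counts in every library, against 13.8% of the 58. Exon sequence shared with a gene on the opposite strand was found for 6 of the 15 low genes (40%) and for 17 of the 43 others (39.5%), and median exon length was 2278 and 3614 bp. The low counts were not treated as absence of the subunit.

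**Figure D1:**
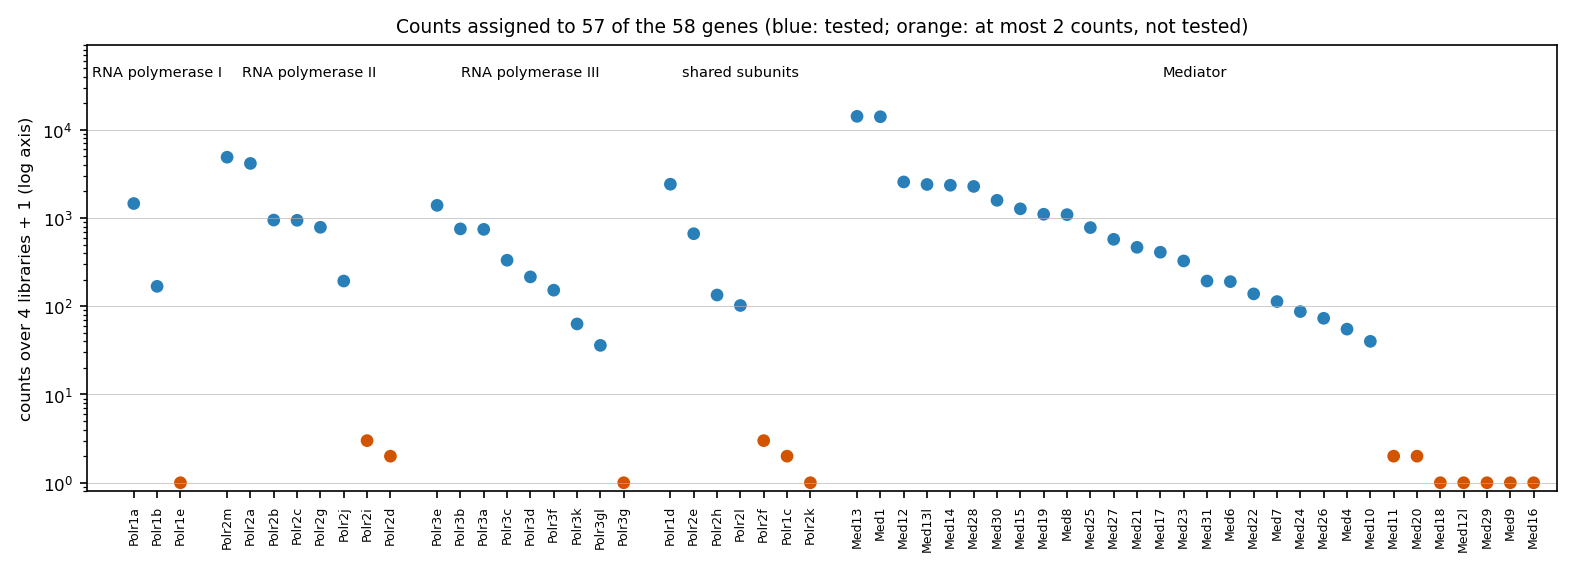
Counts assigned to 57 of the 58 genes, summed over the 4 libraries, with 1 added, on a log axis. Genes are grouped by complex and ordered by count. Blue points are the 43 tested genes, from 35 counts (Polr3gl) to 14181 counts (Med13), and orange points are 14 genes with at most 2 counts.

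Levels of different genes were compared as CPM per kilobase of exon, averaged over the 4 libraries. The length was the union of all annotated exons of a gene, used in these cells or not, so levels of different genes compare only roughly. The highest was Polr2m, at 57.8, which encodes Gdown1, a polymerase-associated factor that makes RNA polymerase II depend on Mediator. It was followed by Med1 (45.8), Med30 (38.2) and Med13 (37.3). In that order, Med30 and Med13 changed places between groups, with Med30 at 44.7 and 42.2 and Med13 at 33.9 and 33.7 per kilobase with 1-nitropyrene, against 33.1 and 32.8 for Med30 and 40.4 and 41.1 for Med13 in control. Subunits present once in the same enzyme did not have equal levels by this measure. In RNA polymerase II, the stalk subunit gene Polr2g (17.9) and the largest subunit gene Polr2a (16.7) lay above Polr2b (5.82), Polr2c (5.13) and Polr2j (4.96). RNA polymerase III genes ranged from 7.89 for Polr3e to 0.556 for Polr3f, with Polr3gl at 0.627 and Polr3k at 0.56.

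The comparison asked which of these transcripts differed with 1-nitropyrene. Of the 43 tested genes 8 rose and 5 fell at an adjusted p under 0.05 (edgeR's quasi-likelihood test, Benjamini-Hochberg adjustment over 7738 genes). That is 30.2% of the tested genes, while 24.5% of all genes tested were called, 13.2% higher and 11.2% lower. The share was thus near that of the transcriptome and is no result about the complexes as such. Called changes were small, and 3 of the 13 reached 1.5-fold, namely Polr3b, Med6 and Polr3gl. The median log2 fold change was 0.11 over the 43 genes and 0.00 over all genes tested. Both treated libraries lay on one side of both controls in 25 of the 43 genes (18 higher, 7 lower), where 59.2% of all genes tested had groups that did not overlap (30% higher, 29.2% lower). The edgeR fit gave all genes the same spread, whatever the scatter of each one's own replicates. DESeq2 called 4 of the genes higher and 2 lower, of 27 to which it gave an adjusted p, while it called 13.3% of all genes to which it gave one (8.59% higher, 4.73% lower).

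**Figure D2:**
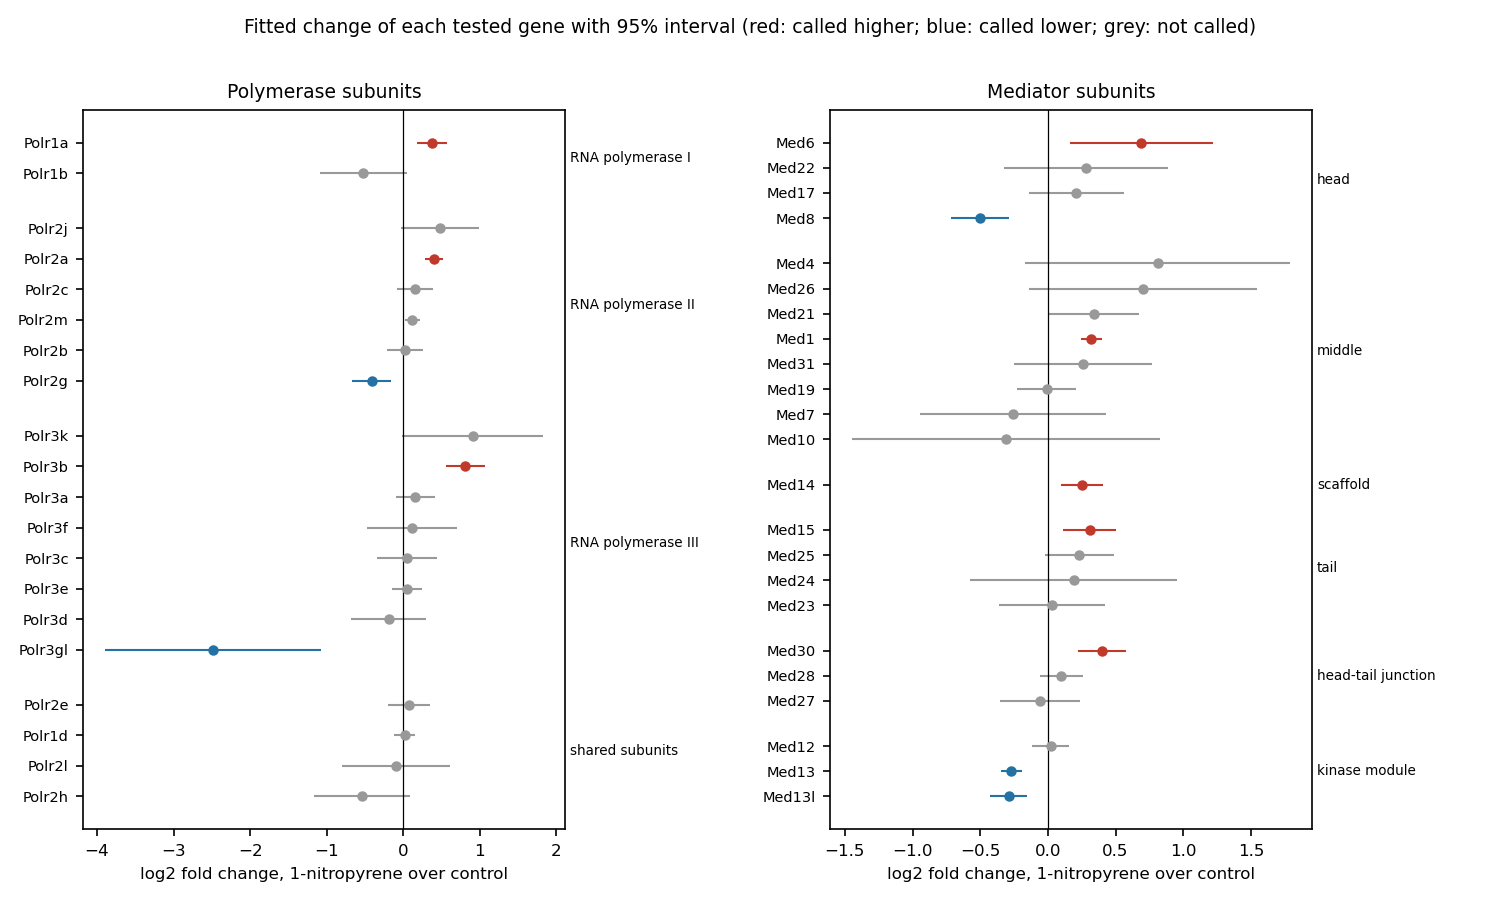
Log2 fold change of 1-nitropyrene over control for the 43 tested genes, by complex and Mediator module, with 95% intervals from the edgeR standard errors. Red genes were called higher (8), blue genes lower (5) and grey genes were not called (30). The fall of Polr3gl is the largest and has the widest interval.

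The catalytic subunit genes gave the rises among the polymerases. In each of the 3 enzymes 1 of the pair of large subunit genes was called higher and the other was not called: Polr1a and not Polr1b, Polr2a and not Polr2b, Polr3b and not Polr3a. In the 3 pairs the fold changes differed, with intervals of the difference that did not include 0. These pairs, and the other pairs below, were set side by side with their values known, and the intervals take the 2 genes' errors as independent.

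Polr2a (GRCm38 chr11:69733997-69758637, minus strand) encodes the largest subunit of RNA polymerase II, which carries the C-terminal repeat domain that is phosphorylated during transcription. It was at 136 and 134 CPM in the 1-nitropyrene libraries against 106 and 97.2 CPM in the control libraries. The groups did not overlap, and the treated libraries differed from each other by less than the controls did. The log2 fold change was 0.40 (SE 0.06, adjusted p = 1.84e-10, edgeR), a ratio of 1.32 (95% interval 1.22 to 1.43). Polr2b, the other large subunit gene, was at 27.5 and 27.1 CPM with 1-nitropyrene against 25.4 and 28.7 CPM in control. Its groups overlapped, and its log2 fold change was 0.03 (SE 0.12, adjusted p = 0.884, edgeR), with a ratio interval of 0.872 to 1.2. The difference between Polr2a and Polr2b was 0.37 (95% interval 0.11 to 0.62). DESeq2 also called Polr2a, and it was called with each library left out in turn.

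Polr3b, the second-largest subunit gene of RNA polymerase III, had the largest rise among the called genes. It had 263 and 209 counts with 1-nitropyrene and 179 and 100 counts in control, or 30.2 and 24.6 CPM against 16.5 and 14.3 CPM. The treated libraries differed by more than the controls did, yet both lay well above them. The log2 fold change was 0.81 (SE 0.13, adjusted p = 3.52e-08, edgeR), a ratio of 1.76 (95% interval 1.46 to 2.11). Polr3a, the largest subunit gene, was at 20.7 and 24.1 CPM with 1-nitropyrene against 19.7 and 20.5 CPM in control (log2 fold change 0.16, SE 0.13, adjusted p = 0.415, edgeR). The difference between Polr3b and Polr3a was 0.65 (95% interval 0.28 to 1.02). Per kilobase, Polr3b stood at 1.62 and 1.13 times Polr3a in the 1-nitropyrene libraries and at 0.926 and 0.775 times Polr3a in the control libraries. Polr3b (chr10:84622292-84727178, plus strand) shares 247 bp of exon with the opposite-strand RNA gene Gm17249, which had 15 and 5 counts with 1-nitropyrene and 16 and 5 in control.

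Polr1a (chr6:71909053-71984935, plus strand), the largest subunit gene of RNA polymerase I, was at 46.6 and 47.8 CPM with 1-nitropyrene against 34.4 and 38.8 CPM in control. The groups did not overlap (log2 fold change 0.38, SE 0.10, adjusted p = 0.000531, edgeR). The call was lost in DESeq2 (adjusted p = 0.0943) and without control replicate 1 (adjusted p = 0.134). Polr1b, its partner, was at 3.8 and 4 CPM with 1-nitropyrene against 5.52 and 5.73 CPM in control. These groups did not overlap either, but with 67 counts against 100 the difference was not called (log2 fold change -0.52, SE 0.29, adjusted p = 0.179, edgeR). The difference between Polr1a and Polr1b was 0.91 (95% interval 0.32 to 1.5). Per kilobase, Polr1a stood at 6 and 5.85 times Polr1b with 1-nitropyrene and at 3.05 and 3.31 times in control.

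**Figure D3:**
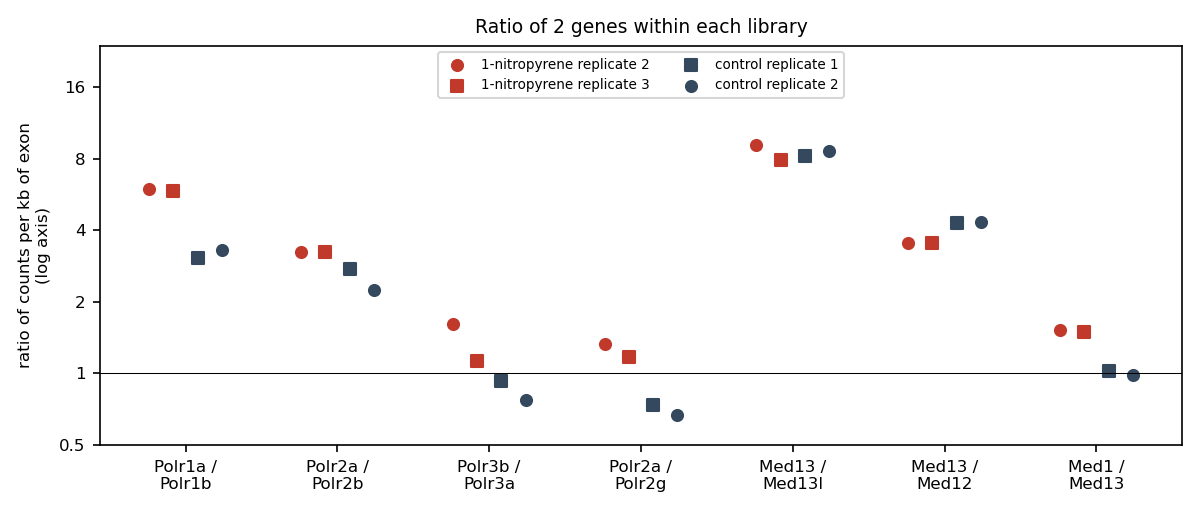
Ratio of the counts per kilobase of exon of 2 genes within the same library, on a log axis, for 7 pairs. Red symbols are the 1-nitropyrene libraries and dark symbols the control libraries, with replicate given by the symbol in the key. The groups are apart in every pair but Med13 over Med13l, where the treated libraries (9.15 and 7.91) lie on both sides of the controls (8.20 and 8.64).

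Among the smaller subunits of RNA polymerase II, Polr2g (chr19:8793127-8798577, minus strand) fell. It encodes RPB7, which with RPB4 forms the stalk of the enzyme. Polr2g was at 18.1 and 20.2 CPM with 1-nitropyrene against 25.3 and 25.7 CPM in control (log2 fold change -0.41, SE 0.13, adjusted p = 0.00953, edgeR), and the groups did not overlap. The call was lost in DESeq2 (adjusted p = 0.201) and in 3 of the 4 fits with a library left out. Polr2a and Polr2g moved apart by 0.81 (95% interval 0.53 to 1.09). The gene of the stalk partner, Polr2d, had 1 count in all and could not be tested. Polr2c (RPB3) and Polr2j (RPB11), the assembly subunits, had log2 fold changes of 0.15 (adjusted p = 0.387) and 0.48 (adjusted p = 0.19) in edgeR. Polr2m was at 137 and 154 CPM with 1-nitropyrene against 129 and 141 CPM in control, and was not called (log2 fold change 0.12, SE 0.05, adjusted p = 0.1, edgeR). It was called higher without 1-nitropyrene replicate 2 (log2 fold change 0.20, adjusted p = 0.00888), and its log2 fold change was 0.03 without 1-nitropyrene replicate 3 and 0.04 without control replicate 1.

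Polr3gl (chr3:96577872-96594181, minus strand) had the largest fall of the 43 genes, at very low counts. It encodes 1 of the alternative forms of the RPC7 subunit, which belongs to the initiation subcomplex of RNA polymerase III. The other form is encoded by Polr3g, known for high expression in embryonic stem cells and tumours, and Polr3g had 0 counts in all 4 libraries. Polr3gl had 4 and 1 counts with 1-nitropyrene against 17 and 13 counts in control. No treated library reached the lower control, and the fitted log2 fold change was -2.48 (SE 0.72, adjusted p = 0.00384, edgeR). The ratio of the summed counts, scaled by library size, was 0.173 with an exact 95% counting interval of 0.0524 to 0.45. Without 1-nitropyrene replicate 3, the library with 1 count, the log2 fold change was -1.84 and the call was lost (adjusted p = 0.0711). DESeq2 gave no adjusted p. The 57 bp of exon that Polr3gl shares with the opposite-strand gene Gm16253 carried no counts for that partner in any library.

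The other 6 tested RNA polymerase III genes were not called. Their log2 fold changes ran from -0.19 to 0.91, the highest being Polr3k, whose product serves RNA cleavage and termination, with 16 and 24 counts with 1-nitropyrene against 16 and 6 in control. Scaled by depth, both treated libraries lay above both controls for Polr3k (1.84 and 2.82 against 1.47 and 0.86 CPM), without a call (adjusted p = 0.153, edgeR). The partners of Polr3gl in the initiation subcomplex, Polr3c and Polr3f, were at 9.55 and 9.64 CPM and at 3.91 and 5.05 CPM with 1-nitropyrene, against 10.1 and 8.03 CPM and 4.32 and 3.87 CPM in control. Both pairs of groups overlapped.

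Of the 7 genes for subunits shared between the enzymes, 4 were tested and edgeR called 0, beside 24.5% of all genes tested. DESeq2 gave an adjusted p to 2 of them and called 0, beside 13.3% of all genes to which it gave one. In edgeR 0 of the 4 had an unadjusted p under 0.05. With so few genes, the lack of calls is no result about the shared subunits. Polr1d, shared by RNA polymerases I and III, was at 69.7 and 68.8 CPM with 1-nitropyrene against 67.8 and 69.2 CPM in control, and the ratio interval of 0.915 to 1.12 was the narrowest of the 4. Polr2h, common to the 3 enzymes, was lower in both treated libraries (2.99 and 3.17 CPM) than in the controls (4.05 and 5.16 CPM), a log2 fold change at -0.54 that was not called (SE 0.32, adjusted p = 0.224, edgeR).

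The stretch of 250 bases before the transcription start is printed for 4 of the called genes. Chosen were the called polymerase genes with the largest rise and the largest fall. Added to them were the called large subunit and kinase module genes with the smallest p. No uncalled gene is printed beside them. The sequences are from RefSeq on GRCm38.p6, written 5′ to 3′ on the gene's strand. Capitals mark matches, on either strand, to 6 motifs searched: the GC box GGGCGG, the CCAAT box CCAAT, the ETS motif CCGGAAG, the E-box CACGTG, the TATA box TATAAA and the NRF1 motif, a palindrome given by name.
Polr3b, chr10:84622048-84622297, plus strand: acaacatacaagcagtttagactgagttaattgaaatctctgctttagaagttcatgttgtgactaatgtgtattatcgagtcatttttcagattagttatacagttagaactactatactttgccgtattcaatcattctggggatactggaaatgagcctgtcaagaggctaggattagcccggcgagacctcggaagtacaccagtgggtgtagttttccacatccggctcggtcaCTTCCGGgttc
Polr3gl, chr3:96594182-96594431, minus strand: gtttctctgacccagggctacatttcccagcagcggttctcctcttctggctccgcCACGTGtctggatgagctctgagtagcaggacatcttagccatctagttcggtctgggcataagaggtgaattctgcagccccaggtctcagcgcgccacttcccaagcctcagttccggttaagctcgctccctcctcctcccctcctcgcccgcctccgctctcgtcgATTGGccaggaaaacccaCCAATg
Polr2a, chr11:69758634-69758883, minus strand: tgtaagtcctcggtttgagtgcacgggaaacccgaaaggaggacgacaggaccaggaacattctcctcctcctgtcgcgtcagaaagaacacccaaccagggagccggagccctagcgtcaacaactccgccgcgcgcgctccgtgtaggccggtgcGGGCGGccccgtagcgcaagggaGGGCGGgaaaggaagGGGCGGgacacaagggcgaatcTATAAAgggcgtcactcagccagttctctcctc
Med13, chr11:86357597-86357846, minus strand: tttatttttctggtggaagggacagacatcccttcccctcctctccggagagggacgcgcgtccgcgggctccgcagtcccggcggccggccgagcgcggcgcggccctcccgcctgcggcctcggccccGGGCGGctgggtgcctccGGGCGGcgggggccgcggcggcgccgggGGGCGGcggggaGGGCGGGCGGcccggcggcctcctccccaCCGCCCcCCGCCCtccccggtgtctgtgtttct

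The Polr3b stretch held 1 ETS motif on the reverse strand and none of the other 5 motifs, at 42.4% G and C. The Polr3gl stretch held a CCAAT box on each strand close to the start and 1 E-box. The Polr2a stretch held 3 GC boxes and 1 TATA box, and the Med13 stretch held 7 GC boxes, some of which overlap each other, at 80% G and C. Promoter stretches were found for 48 of the 58 genes, 54 stretches in all. A GC box was in 61.1% of them and in 32.7% of the 32851 promoters of the table, and the ETS motif was in 20.4% and 6.91%. For the CCAAT box the shares were 33.3% and 33.8%, for the TATA box 9.26% and 12.4%, for the E-box 5.56% and 6.02%, and for the NRF1 motif 0 of 54 and 0.782%. In the 11 stretches of called genes the shares were 54.5% for the GC box, 36.4% for the CCAAT box and 27.3% for the ETS motif. For the TATA box and the E-box they were 9.09% each, and for the NRF1 motif 0. No test compared these shares. A match is a string of letters and not a shown binding site. The table of promoters includes genes that were not measured in these libraries.

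In Mediator 23 of 30 genes were tested, and 5 rose and 3 fell, 34.8% of those tested, beside 24.5% of all genes tested (13.2% higher, 11.2% lower). No test compared these shares. Both genes that link the kinase module to the core, Med13 and Med13l, fell by nearly the same amount. The genes that rose were Med6 of the head, Med1 of the middle, the backbone gene Med14, Med15 of the tail and Med30 of the head-tail junction, and the third fall was the head gene Med8. Of the 23 genes, 16 had a log2 fold change above 0, beside 3839 of all 7738 genes tested. The median log2 fold change of the 23 was 0.21, beside 0.00 for all genes tested. This median was 0.13 when genes averaging under 10 CPM were dropped from the fit, and 0.07 to 0.19 with a library left out.

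Med13 was among the most highly counted of the 58 genes. It was at 368 and 366 CPM with 1-nitropyrene against 438 and 445 CPM in control, and the gap between the groups was many times that between replicates. The log2 fold change was -0.27 (SE 0.04, adjusted p = 4.65e-12, edgeR), a ratio of 0.83 (95% interval 0.791 to 0.872). Its paralogue Med13l (chr5:118560679-118765438, plus strand) was at 57.2 and 65.8 CPM with 1-nitropyrene against 76.1 and 73.4 CPM in control (log2 fold change -0.29, SE 0.07, adjusted p = 0.00109, edgeR). The Med13l call was lost in DESeq2 (adjusted p = 0.12), without control replicate 1 and without 1-nitropyrene replicate 2. The difference between Med13 and Med13l was 0.02 (95% interval -0.14 to 0.18). In human cells the products of both genes are known substrates of the ubiquitin ligase that uses FBXW7, the protein named in the study's design, and the counts here measure only RNA. Med13 (chr11:86267033-86357602, minus strand) shares 800 bp of exon with the antisense gene Brip1os, which had 286 and 244 counts with 1-nitropyrene and 358 and 227 in control, beside 3197 and 3111 counts of Med13 with 1-nitropyrene and 4766 and 3107 in control. The strand setting used in counting is not known, and reads of the pair cannot be told apart there.

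Med12, which activates the kinase together with cyclin C, did not follow Med13. It was at 74.0 and 73.1 CPM with 1-nitropyrene against 72.2 and 72.8 CPM in control (log2 fold change 0.02, SE 0.07, adjusted p = 0.877, edgeR), and the ratio interval ran from 0.92 to 1.12. The sign of this small value turned without scaling factors (-0.01). Med13 and Med12 differed by -0.29 (95% interval -0.45 to -0.13). The enzymes of the module lie outside the symbols that defined the set. The kinase gene Cdk8 rose to 364 and 380 CPM with 1-nitropyrene against 293 and 296 CPM in control (log2 fold change 0.34, SE 0.04, adjusted p = 8.20e-17, edgeR). Its paralogue Cdk19 was at 20 and 20.9 CPM against 21.5 and 25.7 CPM (adjusted p = 0.346), and cyclin C (Ccnc) at 163 and 165 CPM against 172 and 180 CPM (log2 fold change -0.10, SE 0.05, adjusted p = 0.145, edgeR). Ccnc was called lower without scaling factors (adjusted p = 0.0438) and with genes averaging under 10 CPM dropped (0.0445). The genes of the kinase module thus moved in different directions.

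Med1 (chr11:98152154-98193293, minus strand), the middle subunit that binds nuclear receptors, had the smallest p of the 58 genes. It was at 450 and 440 CPM with 1-nitropyrene against 360 and 353 CPM in control, and the groups lay far apart relative to their replicates. The log2 fold change was 0.32 (SE 0.04, adjusted p = 7.60e-17, edgeR), a ratio of 1.25 (95% interval 1.19 to 1.31). Per kilobase, Med1 stood at 1.52 and 1.49 times Med13 with 1-nitropyrene and at 1.02 and 0.982 times in control, where the levels were nearly equal. The difference of their log2 fold changes was 0.59 (95% interval 0.49 to 0.69). The other 7 tested middle genes were not called, with log2 fold changes from -0.31 to 0.81 and mean levels of 0.985 to 31.3 CPM with 1-nitropyrene and 1.10 to 31.2 CPM in control. Their ratio intervals all included the ratio of Med1, except that of Med19 (0.859 to 1.16).

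Med30 (chr15:52712408-52730564, plus strand), a subunit found in animals at the junction of head and tail, was at 53.0 and 50.1 CPM with 1-nitropyrene against 39.2 and 38.8 CPM in control (log2 fold change 0.40, SE 0.09, adjusted p = 0.000126, edgeR). Its groups did not overlap, and the call was kept with each library left out and in DESeq2 (adjusted p = 0.0445). Med28, of the same junction, was at 68.4 and 66.0 CPM against 62.8 and 62.6 CPM and was not called (adjusted p = 0.372, edgeR). The backbone gene Med14 was at 71.8 and 74.2 CPM with 1-nitropyrene against 60.0 and 63.2 CPM in control (log2 fold change 0.25, SE 0.08, adjusted p = 0.00552, edgeR). The tail gene Med15, whose product binds activators such as SREBP, was at 38.6 and 41.6 CPM against 32.6 and 32.2 CPM (log2 fold change 0.31, SE 0.10, adjusted p = 0.0144, edgeR). The other 3 tested tail genes were not called, with log2 fold changes of 0.03 to 0.23, and Med27, of the junction, was at -0.06. The calls of Med14 and Med15 were lost in DESeq2 (adjusted p = 0.18 and 0.237) and in 2 and 3 of the 4 fits with a library left out.

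The head genes moved both ways. Med8 (chr4:118409337-118415782, plus strand) was at 26.2 and 25.1 CPM with 1-nitropyrene against 37.1 and 35.1 CPM in control, the groups well apart (log2 fold change -0.50, SE 0.11, adjusted p = 8.28e-05, edgeR). It was called in DESeq2 (adjusted p = 0.0403) and with each library left out. Med6 had 55 and 60 counts with 1-nitropyrene against 48 and 26 counts in control, or 6.33 and 7.05 CPM against 4.42 and 3.73 CPM. The rise was just inside the threshold (log2 fold change 0.69, SE 0.27, adjusted p = 0.0439, edgeR), was lost in all 4 fits with a library left out, and had no adjusted p in DESeq2. Med17, the head scaffold gene, and Med22 were not called, and Med11, Med18 and Med20 had at most 1 count.

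**Figure D4:**
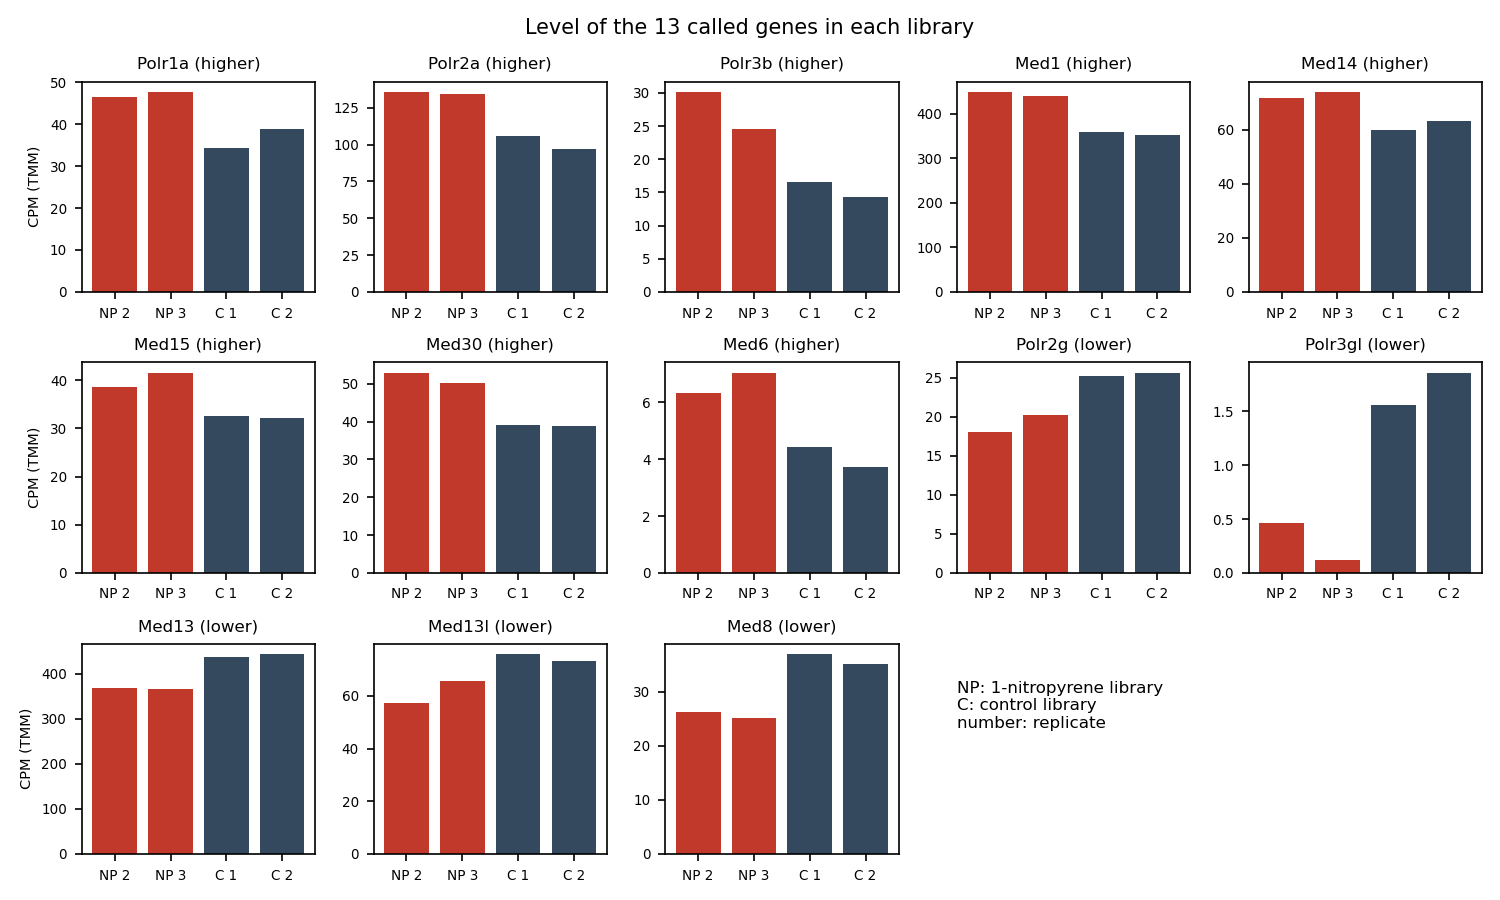
Normalised level (CPM with TMM scaling, axis from 0) of the 13 called genes in each library. Red bars are 1-nitropyrene replicates 2 and 3 and dark bars are control replicates 1 and 2. In each gene both treated libraries lie on the same side of both controls. This held for 59.2% of all genes tested, called or not, whereas the 13 genes were picked by their calls. Polr3gl lies below 2 CPM throughout.

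Of the 13 calls, 6 were kept by edgeR with each of the 4 libraries left out in turn: Polr2a, Polr3b, Med1, Med8, Med13 and Med30. The same 6 genes were those called by DESeq2. Without control replicate 1, 4 of the 43 genes were higher and 3 lower, beside 8.74% and 6.47% of all genes tested (15.2% called). Without control replicate 2 they were 6 and 4, beside 9.51% and 7.49% (17% called). Without 1-nitropyrene replicate 2 they were 9 and 3, beside 10.8% and 8.08% (18.9% called), and without 1-nitropyrene replicate 3 they were 5 and 4, beside 10.6% and 8.11% (18.7% called). When genes whose exons overlap those of a gene on the other strand were set aside, 26 tested genes remained, with 5 higher and 2 lower. Of all genes tested, with none set aside, 24.5% were called (13.2% higher, 11.2% lower). Against a null of a 1.2-fold change, edgeR called 2 of the 43 genes higher and 1 lower, while it called 5.85% of all genes tested (3.09% higher, 2.77% lower). The genes were Polr2a, Polr3b and Polr3gl.

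Factors that work with the polymerases were read from lists of their own, and each count stands beside the 24.5% of all genes tested that were called. Pausing and elongation factors of RNA polymerase II had 8 higher and 3 lower of 25 tested, with a median log2 fold change of 0.12. Supt5, which encodes the elongation factor SPT5, rose to 179 and 192 CPM with 1-nitropyrene against 126 and 120 CPM in control (log2 fold change 0.59, SE 0.05, adjusted p = 3.84e-27, edgeR). Paf1, of the elongation complex that bears its name, was at 31.2 and 39.5 CPM against 19.7 and 22.5 CPM (0.76, SE 0.12, adjusted p = 2.49e-09), and the histone chaperone gene Ssrp1 at 394 and 422 CPM against 359 and 357 CPM (0.19, SE 0.04). Factors that bind or dephosphorylate the C-terminal domain had 4 higher and 0 lower of 12 tested, with the phosphatase gene Ssu72 at 121 and 118 CPM against 92.5 and 96.3 CPM (0.35, SE 0.06, adjusted p = 2.10e-07). The others named by p were Rprd1b (0.38, SE 0.09) and Pcf11 (0.19, SE 0.05). DESeq2 called neither (adjusted p = 0.0695 and 0.0946), and the Pcf11 call was also lost without 1-nitropyrene replicate 3 (0.069).

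General transcription factors of RNA polymerase II had 1 higher (Gtf2a2, log2 fold change 0.26, SE 0.06) and 1 lower (Ccnh, -0.36, SE 0.13) of 14 tested. The Gtf2a2 call was lost in DESeq2 (adjusted p = 0.0884) and without control replicate 1 (0.138), and the Ccnh call in DESeq2 (0.276) and in 3 of the 4 fits with a library left out (up to 0.204). The TFIID subunits had 1 higher and 2 lower of 12, with Taf15 at 197 and 185 CPM with 1-nitropyrene against 240 and 224 CPM in control (-0.29, SE 0.05, adjusted p = 7.69e-09, edgeR), Taf3 at 0.32 (SE 0.09) and Taf4 at -0.16 (SE 0.05). DESeq2 did not call Taf3 (adjusted p = 0.113) or Taf4 (0.12), and the Taf4 call was also lost without control replicate 1 (0.116) and without 1-nitropyrene replicate 2 (0.0764). Of RNA polymerase I initiation factors, 3 of 8 were tested and Ubtf fell, the factor that bends ribosomal DNA, to 232 and 243 CPM with 1-nitropyrene against 277 and 272 CPM in control (-0.21, SE 0.04, adjusted p = 7.55e-06, edgeR). RNA polymerase III factors had 0 higher and 1 lower of 9, the La protein gene Ssb, which binds the ends of the enzyme's transcripts (9.78 and 9.99 CPM against 14.7 and 14.8 CPM, -0.58, SE 0.18, adjusted p = 0.00712). The Ssb call was lost in DESeq2 (adjusted p = 0.173), without control replicate 1 (0.0785) and without 1-nitropyrene replicate 2 (0.0531). Of the assembly factors 1 of 5 rose (Uri1, 0.38, SE 0.06), and of the snRNA gene activators 1 of 4 (Snapc3, 0.25, SE 0.10, adjusted p = 0.0485), a call that 14 of 16 alternatives did not keep. The subunit genes with older or other symbols, Twistnb, Znrd1, Cd3eap and Crcp, were listed together with Polrmt, the gene of the mitochondrial RNA polymerase. Of these 5 genes, 0 passed the filter on low counts.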

How the data were processed

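RNA was prepared with a stranded kit for polyadenylated RNA, per the labels' protocols. The authors deposited raw read counts per gene. HISAT2 2.1.0, featureCounts 1.6.3, DESeq2 and the build GRCm38 are listed in the submitters' processing notes without their roles. Strand setting, annotation release and treatment of multiply mapped reads were not given there, so counts of overlapping or near-identical genes may be misassigned. Groups and replicate numbers came from the sample titles.

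Symbols, types, exon lengths and coordinates were taken from GENCODE M21 (GRCm38), which matched 53360 of 53465 identifiers. Counts were analysed with edgeR 4.0.16 in R 4.3.3: filterByExpr, TMM factors of 0.989 to 1.01, an intercept and the treatment, and the quasi-likelihood fit with legacy set to FALSE (dispersion 0.000546). A gene was called at an adjusted p (Benjamini-Hochberg, over 7738 genes) under 0.05. All tests are two-sided. Standard errors are the absolute log2 fold change over the square root of F, and intervals are at 95%. CPM values are scaled by TMM.

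Alternatives were other scaling, filters, DESeq2 1.42.0, limma-voom (limma 3.58.1), other quasi-likelihood settings, stricter thresholds, and each library left out in turn, where a group's single library borrows the spread of the other pair. Genes named are all called subunit genes, large subunit, backbone and kinase module genes, paralogues of called genes, others by range, and up to 3 called genes of each list with the smallest p. Polr2c, Polr2h, Polr2j, Polr2m, Polr1d, Polr3c, Polr3f, Polr3k and Med28 were added after their values were seen. The values of 1 gene are not reported here. The genes and lists were chosen with earlier results of these data known.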

Additional observations from a re-analysis of the deposited data

How the results depend on the processing

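No paired analysis was possible because the groups share only replicate number 2. Of all genes tested 1024 were called higher and 870 lower. DESeq2 called 458 and 252, and among the subunit genes 4 and 2. Against a 1.2-fold change the counts were 239 and 214, and 2 and 1. At an adjusted p under 0.01, 568 genes were lower, and with no filter on low counts 532. Without scaling factors the split of all genes turned to 868 higher and 1017 lower. Without genes that share opposite-strand exons, 5 subunit genes were higher and 2 lower, beside 24.5% called of all genes tested with none set aside. With 1 library left out, 690 to 861 of all genes were higher and 511 to 647 lower, and of the subunit genes 4 to 9 were higher and 3 to 4 lower, the fewest without control replicate 1.

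Medians of log2 fold changes by complex were -0.07 for RNA polymerase I, 0.13 for II, 0.08 for III, -0.04 for the shared subunits and 0.21 for Mediator. With 1 library left out they ranged from -0.14 to -0.03, 0.06 to 0.19, 0.05 to 0.17, -0.40 to 0.10 and 0.07 to 0.19. At a mean of at least 10 CPM in the fit the medians for I, III and Mediator were 0.36, 0.14 and 0.13, and with only genes of that level kept from the fit used 0.38, 0.16 and 0.16; DESeq2 gave 0.37 for I and 0.10 for Mediator. The RNA polymerase I value is 1 gene there, Polr1a.

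For the 13 called genes, 167 of the values under the alternatives kept direction and call, 37 kept direction and lost the call, and 0 reversed. Uncalled genes near 0 changed sign: Med12 was at -0.01 without scaling and 0.00 at 10 CPM, Polr1d at -0.01 in both and between 0.00 and 0.03 with a library left out, and Polr2b between -0.07 and 0.10. Calls were gained for Ccnc under 2 alternatives and for Polr2m without 1-nitropyrene replicate 2. Causes were not tested. Genes under about 100 counts had wide intervals.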

Other observations

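The 7SK RNA gene Rn7sk, a product of RNA polymerase III whose RNA holds the elongation kinase in an inactive form, had 1628 and 1661 counts with 1-nitropyrene and 2135 and 1382 counts in control. Scaled, this was 187 and 195 CPM against 196 and 198 CPM, and was not called (log2 fold change -0.04, SE 0.05, adjusted p = 0.548, edgeR). 7SK RNA is not polyadenylated, and the libraries were made from polyadenylated RNA. It was looked at after the values of the subunit genes were known.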
